A study of Mus musculus with 24 samples.

Results

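The genes described here encode the constitutive subunits of the proteasome in the mouse adrenal gland. The 31 members were chosen by gene symbol and not by a cut on their values, but with earlier results of these data known. They are 7 alpha and 7 beta subunits of the 20S core particle, 6 ATPases of the 19S regulatory particle and 11 of its non-ATPase subunits. They had 67 of the 45101 probe sets in the deposited table. Each gene was read from its brightest probe set, and all 31 were among the 13879 named genes that passed a filter on low signal.

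The series followed gene expression in whole adrenals of male C57B/6J mice aged 3 months across 12 time points, with 2 Affymetrix arrays for each. The labels call the mice wild type, and state that they were entrained for 2 weeks to 12 h of light and 12 h of darkness and killed in constant darkness from 38 to 82 h after lights off, every 4 h. Hours after lights off minus 12, modulo 24, gave 6 circadian times (CT2, CT6, CT10, CT14, CT18 and CT22), where CT2 to CT10 fall in the subjective day and CT14 to CT22 in the subjective night. No other genotype or treatment is named in the labels, where the groups differ by time. Whether the arrays at a time were hybridised with RNA of different mice, or of pools, is not in the labels, and p-values therefore cover only the array-to-array spread, which may be technical.

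Arrays that stood apart were handled before any comparison. In 6 pairs of arrays, no probe set brighter than 50 differed by more than 5%, and the pairs had an SD of the log2 ratio of at most 0.0418, against 0.217 to 0.516 in 30 other pairs of the same circadian time. Arrays labelled 24 h apart made up 5 of the 6 near-copy pairs, and 1 pair lay within a time point. Why arrays of different time points were nearly identical is not in the labels, so their time labels, though not their circadian times, are in doubt. Averaging each near-copy pair into a single sample gave 18 profiles, with 3 for every circadian time. A spiked control probe set (ThrX) divided the arrays into a second array batch, with all 8 arrays of CT10 and CT18, and a first array batch with the other 16 arrays. The level at CT10 and CT18 and the array batch therefore cannot be told apart, whereas CT14 minus CT2 and CT22 minus CT6 lie within the first batch and CT18 minus CT10 within the second. Summed signal of 7 skeletal muscle markers was 416 to 33500 in profiles of the second batch and 401 to 489 in the first, and 4 second-batch profiles, 2 at CT10 and 2 at CT18, had an Acta1 signal over 1000. Summed signal of 6 liver markers was 1870 to 18700 in the second batch and 1160 to 2890 in the first. The Gapdh 5′/3′ ratio, a sign of RNA integrity, was 0.0386 on the second array of 78 h (CT18) and 0.822 to 1.15 elsewhere. Blood cell markers (3 genes) summed to 821 to 1720 in the second batch and 637 to 855 in the first, immune cell markers (7 genes) to 13700 to 15200 and 9220 to 15600, and fat cell markers (5 genes) to 24900 to 37900 and 21300 to 37700. The part of these in the results was not tested, beyond the fits given below without the muscle-marker profiles and that array. Adrenal identity was clear in both batches: Cyp11a1, the side-chain cleavage enzyme of steroid synthesis, had a signal of 9180 to 11800 in the second and 12200 to 13000 in the first, and Th, the rate-limiting enzyme of catecholamine synthesis, 3560 to 6280 in the second and 4580 to 6680 in the first.

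The proteasome degrades proteins tagged with ubiquitin. Rings of alpha subunits gate the entry to the core, rings of beta subunits line its chamber and hold the proteolytic sites of Psmb5 (chymotrypsin-like), Psmb6 (caspase-like) and Psmb7 (trypsin-like), and the regulatory particle binds ubiquitin, removes it and unfolds the substrate. In mammalian cells the transcription factor Nfe2l1 (NRF1) raises transcription of many subunit genes together through antioxidant response elements, chiefly when proteasome activity is short. The adrenal holds a steroid-producing cortex and a catecholamine-producing medulla, and its glucocorticoid output follows a daily rhythm in which the gland's own clock takes part. In whole-gland RNA, fewer cells of a type and less RNA per cell cannot be told apart.

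Promoters are shown for the 6 members with the lowest p in the 24 h fit with the array batch as a block that had an entry and held a searched motif. They are the 250 bases before each annotated start, from RefSeq on GRCm38.p6, given 5′ to 3′ on the strand of the gene, with motif matches in capitals: Psmb5 (chr14:54617996-54618245, minus strand), Psma1 (chr7:114276117-114276366, minus), Psmd12 (chr11:107479278-107479527, plus), Psma4 (chr9:54950609-54950858, plus), Psmb6 (chr11:70525107-70525356, plus) and Psma2 (chr13:14612992-14613241, plus).
Psmb5: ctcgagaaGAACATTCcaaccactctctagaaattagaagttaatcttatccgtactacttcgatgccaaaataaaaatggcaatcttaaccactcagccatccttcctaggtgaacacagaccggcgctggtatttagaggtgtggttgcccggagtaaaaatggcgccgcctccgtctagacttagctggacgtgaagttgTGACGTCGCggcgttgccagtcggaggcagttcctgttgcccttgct
Psma1: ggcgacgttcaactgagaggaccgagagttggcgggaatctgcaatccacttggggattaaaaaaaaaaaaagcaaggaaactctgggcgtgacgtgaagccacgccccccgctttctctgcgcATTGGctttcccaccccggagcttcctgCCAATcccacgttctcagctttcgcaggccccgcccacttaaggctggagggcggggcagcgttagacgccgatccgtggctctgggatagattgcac
Psmd12: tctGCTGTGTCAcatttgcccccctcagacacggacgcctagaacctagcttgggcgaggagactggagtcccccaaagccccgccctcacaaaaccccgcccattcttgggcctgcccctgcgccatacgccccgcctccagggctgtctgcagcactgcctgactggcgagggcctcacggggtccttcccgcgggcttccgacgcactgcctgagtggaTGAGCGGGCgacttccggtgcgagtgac
Psma4: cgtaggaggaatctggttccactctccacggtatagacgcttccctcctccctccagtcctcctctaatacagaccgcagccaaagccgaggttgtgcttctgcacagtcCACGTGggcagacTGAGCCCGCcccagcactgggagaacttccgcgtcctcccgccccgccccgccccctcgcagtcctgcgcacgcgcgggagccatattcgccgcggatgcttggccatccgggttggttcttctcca
Psmb6: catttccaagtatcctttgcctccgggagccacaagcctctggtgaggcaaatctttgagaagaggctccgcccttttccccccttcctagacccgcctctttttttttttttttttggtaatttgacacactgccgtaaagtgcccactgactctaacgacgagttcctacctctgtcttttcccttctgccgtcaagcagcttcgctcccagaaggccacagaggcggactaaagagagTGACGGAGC
Psma2: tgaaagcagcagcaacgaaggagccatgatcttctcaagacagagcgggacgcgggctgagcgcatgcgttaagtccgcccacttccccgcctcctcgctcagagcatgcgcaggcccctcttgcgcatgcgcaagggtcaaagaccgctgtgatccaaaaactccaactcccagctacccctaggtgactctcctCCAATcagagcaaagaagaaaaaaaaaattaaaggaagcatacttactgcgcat
Searched on both strands, the antioxidant response element core TGANNNNGC stood 47 to 39 bases before the Psmb5 start, 28 to 20 and 247 to 239 bases before the Psmd12 start, 127 to 119 bases before the Psma4 start and in the last 9 bases before the Psmb6 start. The NF-Y box CCAAT stood 98 to 94 and, on the other strand, 126 to 122 bases before the Psma1 start and 54 to 50 bases before the Psma2 start. Among the 25 members with an entry, Psma4 alone held the E-box CACGTG, the sequence that CLOCK and BMAL1 bind, 140 to 135 bases before its start. Among the same members, the Psmb5 promoter alone held the heat shock element core GAANNTTC. Over all 25 members with an entry (27 promoters), TGANNNNGC was in 37.0% of member promoters and 35.2% of 32851 mouse promoters of the same length, and CCAAT in 37.0% and 33.8%. CACGTG was in 3.7% of member promoters and 6.02% of all, GAANNTTC in 3.7% and 6.69%, and the D-box TTATGTAA in 0 of 27 and 0.819%. The shares of member promoters with TGANNNNGC and CCAAT were thus near those of all promoters, and no member promoter in this window held the D-box letters.

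Values are log2(signal + 51). Amplitude is the cosine's half-range on that scale, so a peak-to-trough difference is double the amplitude. The first question was which subunits followed a 24 h rhythm in constant darkness. Of the 31 members, 5 passed limma's 24 h test at an adjusted p under 0.05 without a batch term (12.8% of all genes passed): Psma1, Psma2, Psmb5, Psmc3 and Psmd12. With the array batch as a block 9 passed (17.8% of all genes), the same 5 and Psma4, Psmb1, Psmb2 and Psmb6. Within the first batch alone, 3 passed (12.3% of all genes): Psma1, Psmb5 and Psmc2. Psma1 and Psmb5 passed all 3 fits (6.9% of all genes), 10 members passed at least 1 of them and 21 passed none. At an unadjusted p under 0.05, 18 members passed without the block (30.9% of all genes) and 14 with it (31.9%). Read against these shares at the adjusted threshold, the count without the block was near the background and the count with it above. At the unadjusted threshold both counts were above it. All 5 members that passed without the block had fitted peaks between CT20.2 and CT22.8, late in the subjective night. With the block, 8 of the 9 that passed peaked between CT20 and CT21.7, with Psmb2 the exception at CT8.2. In that fit the second batch enters only through CT18 minus CT10. A 24 h cosine fitted to that difference alone peaks at CT20 or its antiphase. Fitted peaks of members with little first-batch rhythm, such as Psma4, Psmb6 and Psmb2, were therefore largely set by the design. Over all 31 members, 22 had a fitted peak between CT18 and CT24 with the block (71%), against 25.4% of all genes. Within the first batch alone 23 members did (74.2%), against 21% of all genes. Amplitudes were small: the median over members was 0.13 without and 0.07 with the block, against 0.11 and 0.09 over all genes.

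Psmb5, the chymotrypsin-like catalytic subunit and the target of bortezomib, had the lowest p of the members in both fits over all 18 profiles. In the first batch its log2 signal was 12.44, 12.42 and 12.34 at CT2, 12.33, 12.27 and 12.27 at CT6, 12.29, 12.15 and 12.23 at CT14, and 12.57, 12.45 and 12.46 at CT22. In the second batch it was 12.21, 12.28 and 12.32 at CT18, against 11.68, 11.85 and 11.7 at CT10. All 3 profiles at CT22 lay above the 9 other first-batch profiles, and CT18 and CT10 did not overlap. The amplitude was 0.28 ± 0.05 (SE) with a peak at CT22.8 and a peak-to-trough ratio of 1.48 (adjusted p = 0.00331), 0.23 ± 0.03 at CT21.7 with the block (adjusted p = 0.000387) and 0.15 ± 0.03 at CT22.7 within the first batch (adjusted p = 0.00654, ratio 1.24). Without the muscle-marker profiles, which include the 78 h array with the low Gapdh ratio and leave 1 profile each at CT10 and CT18, the fit with the block gave 0.2 ± 0.03 at CT22 (adjusted p = 0.00538). Psmb5 passed when each profile was left out in turn, with adjusted p from 0.00187 to 0.0106.

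**Figure D1:**
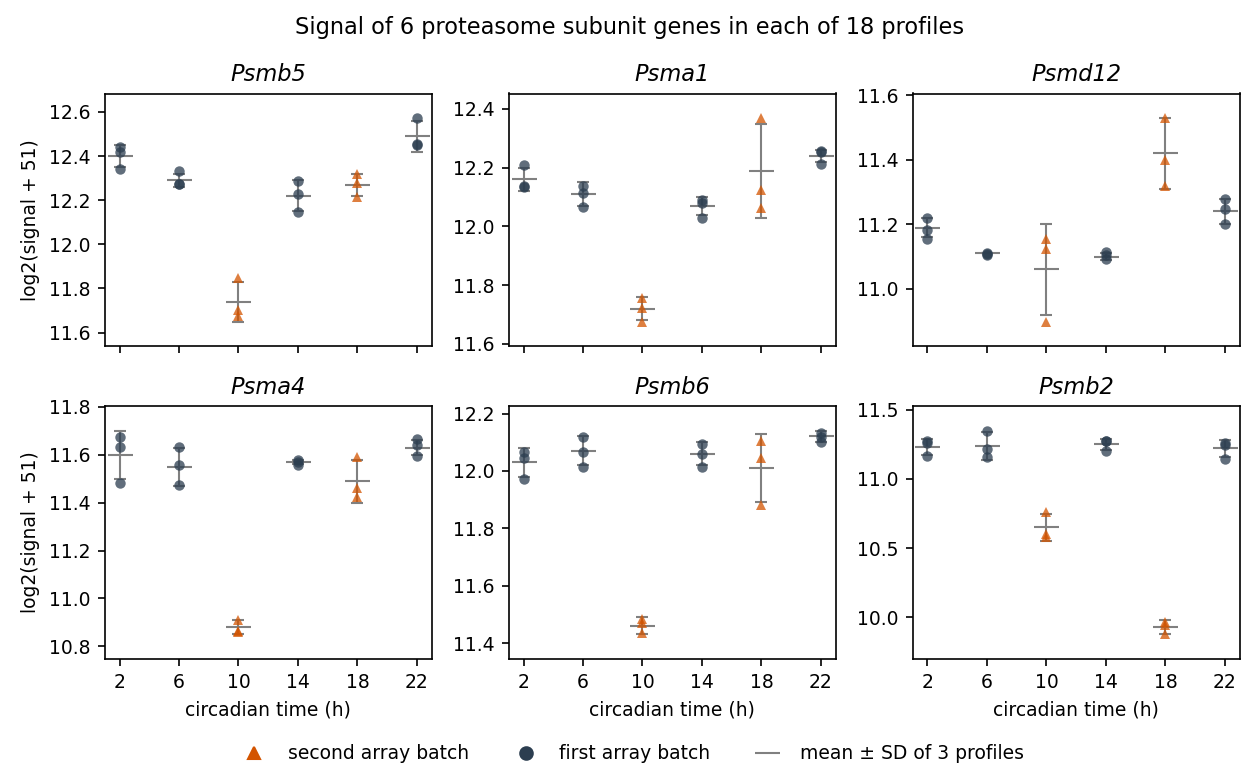
Log2(signal + 51) against circadian time (h) for Psmb5, Psma1, Psmd12, Psma4, Psmb6 and Psmb2. Each point is 1 of 18 profiles, triangles mark the second array batch and circles the first, and grey bars give the mean ± SD of 3 profiles. Psmb5 was highest at CT22 (mean 12.49) and lowest at CT10 (11.74), while Psmb2 was lowest at CT18 (9.93).

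Psma1, an alpha-ring subunit, had its means in the same order over the first-batch times. Its first-batch values were 12.21, 12.14 and 12.13 at CT2, 12.11, 12.14 and 12.07 at CT6, 12.03, 12.08 and 12.09 at CT14, and 12.26, 12.21 and 12.26 at CT22. In the second batch they were 12.06, 12.12 and 12.37 at CT18, against 11.72, 11.68 and 11.76 at CT10. CT22 did not overlap with CT6 or CT14, and it touched CT2 at 12.21. Its amplitude was 0.2 ± 0.04 with a peak at CT22.1 (adjusted p = 0.00782), 0.18 ± 0.03 at CT21.2 with the block (adjusted p = 0.00385) and 0.1 ± 0.02 at CT22.3 within the first batch (adjusted p = 0.0274). It passed in each of the 18 fits with a profile left out.

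Psmd12, a scaffold subunit of the 19S lid, had values of 11.15, 11.22 and 11.18 at CT2, 11.1, 11.11 and 11.11 at CT6, 11.09, 11.1 and 11.11 at CT14, and 11.28, 11.2 and 11.25 at CT22. In the second batch it had 11.32, 11.4 and 11.53 at CT18, against 11.15, 10.9 and 11.12 at CT10. The profiles at CT6 and CT14 lay between 11.09 and 11.11, below every profile at CT2 and CT22. Its amplitude was 0.14 ± 0.03 at CT20.2 (adjusted p = 0.0296), 0.15 ± 0.03 at CT21.1 with the block (adjusted p = 0.0092) and 0.09 ± 0.02 at CT21.9 within the first batch (adjusted p = 0.0521). The call without the block was lost without the CT10 profile of 70 h or without the second CT18 array of 54 h, with adjusted p up to 0.0653.

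Psma4 and Psmb6 were lowest at CT10. Psma4, another alpha-ring subunit, had 11.67, 11.63 and 11.48 at CT2, 11.56, 11.63 and 11.47 at CT6, 11.56, 11.58 and 11.57 at CT14, and 11.64, 11.6 and 11.66 at CT22, and in the second batch 11.46, 11.43 and 11.59 at CT18, against 10.86, 10.86 and 10.91 at CT10. Psmb6, the caspase-like catalytic subunit, had 12.07, 12.04 and 11.97 at CT2, 12.07, 12.12 and 12.01 at CT6, 12.06, 12.01 and 12.09 at CT14, and 12.13, 12.1 and 12.12 at CT22, and in the second batch 12.11, 11.88 and 12.04 at CT18, against 11.48, 11.47 and 11.43 at CT10. The CT10 profiles of both genes lay below all others, and in the first batch CT22 lay above CT14 but overlapped with CT6. With the block their amplitudes were 0.2 ± 0.04 at CT20.3 (adjusted p = 0.0111) for Psma4 and 0.17 ± 0.04 at CT20 (adjusted p = 0.0185) for Psmb6. Within the first batch they were 0.05 ± 0.03 (adjusted p = 0.546) for Psma4 and 0.03 ± 0.03 (adjusted p = 0.736) for Psmb6, and without the muscle-marker profiles and the low-Gapdh array the fit with the block called neither (adjusted p = 0.166 and 0.229).

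Psmb2, a beta subunit with no catalytic site, ran against the members described above. It had 11.26, 11.28 and 11.17 at CT2, 11.16, 11.35 and 11.22 at CT6, 11.28, 11.28 and 11.2 at CT14, and 11.15, 11.26 and 11.24 at CT22, and in the second batch 9.94, 9.88 and 9.96 at CT18, against 10.58, 10.76 and 10.6 at CT10. The 12 first-batch profiles were alike, the second-batch profiles were all lower, and CT18 lay far below CT10. With the block its amplitude was 0.22 ± 0.05 at CT8.2 (adjusted p = 0.0257), but within the first batch it was 0.02 ± 0.03 (adjusted p = 0.911). Its one tested probe set offered no second reading.

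The other members named by their p had lower amplitudes. Psma2, of the alpha ring, averaged 12.06 ± 0.09 at CT2, 12.04 ± 0.01 at CT6, 11.81 ± 0.06 at CT10, 12.01 ± 0.04 at CT14, 12.18 ± 0.08 at CT18 and 12.1 ± 0.04 at CT22 (SD, n = 3), with an amplitude of 0.13 ± 0.03 in both fits (adjusted p = 0.0251, and 0.0195 with the block). Psmb1, a beta subunit with no catalytic site, averaged 12.26 ± 0.07, 12.25 ± 0.06, 11.86 ± 0.09, 12.23 ± 0.03, 12.25 ± 0.06 and 12.29 ± 0.07 over the same times, and passed with the block (0.13 ± 0.03, adjusted p = 0.0299) but not without it (adjusted p = 0.0547). Both were lowest at CT10, and within the first batch neither passed (adjusted p = 0.443 for Psma2 and 0.672 for Psmb1). Psmc3, an ATPase of the 19S base, averaged 11.54 ± 0.07, 11.48 ± 0.09, 11.25 ± 0.01, 11.48 ± 0.05, 11.54 ± 0.01 and 11.54 ± 0.06, and its amplitude of 0.12 ± 0.03 (adjusted p = 0.0493) lost its call in 13 of 18 fits with a profile left out. Psmb4, a further non-catalytic beta subunit, averaged 12.38 ± 0.03, 12.38 ± 0.03, 12 ± 0.03, 12.3 ± 0.03, 12.27 ± 0.05 and 12.38 ± 0.03 and did not pass (adjusted p = 0.0576 without the block, 0.0701 with it). CT10 was again the lowest time of both.

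Psma3, the alpha subunit with the brightest probe set, had a mean signal of 5710 and moved little: 12.48 ± 0.03, 12.51 ± 0.03, 12.47 ± 0.05, 12.43 ± 0.01, 12.54 ± 0.04 and 12.53 ± 0.02 from CT2 to CT22, with an amplitude of 0.03 ± 0.02 (adjusted p = 0.381). Psmd7, a lid subunit and the partner of the deubiquitinase Psmd14, had the dimmest, with a mean signal of 1140. It averaged 10.37 ± 0.08 at CT2, 10.31 ± 0.02 at CT6, 9.9 ± 0.09 at CT10, 10.35 ± 0.12 at CT14, 9.9 ± 0.7 at CT18 and 10.33 ± 0.06 at CT22. Its spread at CT18 came from 1 array: 10.13 and 10.46 in the other profiles and 9.11 on the 78 h array with the low Gapdh ratio. Psmd13, another lid subunit, behaved alike, with 10.52 and 10.33 at CT18 and 9 on that array. Brightness also depends on each probe set's own sequence, so levels were not set against each other across genes.

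By subcomplex, the fit with the block called 3 of 7 alpha, 4 of 7 beta, 1 of 6 ATPase and 1 of 11 non-ATPase genes, and the fit without it 2, 1, 1 and 1. The median amplitude with the block was 0.13 over the 14 core genes and 0.06 over the 17 regulatory-particle genes. Within the first batch those medians were 0.05 and 0.06, so the difference between core and regulatory particle was not seen there. Psmc2, an ATPase of the base, passed within the first batch (0.11 ± 0.02 at CT22.4, adjusted p = 0.0283) but not over all profiles, where its CT10 mean was 12.48 and its CT22 mean 12.47. The block fit without the muscle-marker profiles and the low-Gapdh array called 5 members (13.9% of all genes): Psma1, Psmb5, Psmc2, Psmd12 and Psmd14, the last being the deubiquitinase of the lid.

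**Figure D2:**
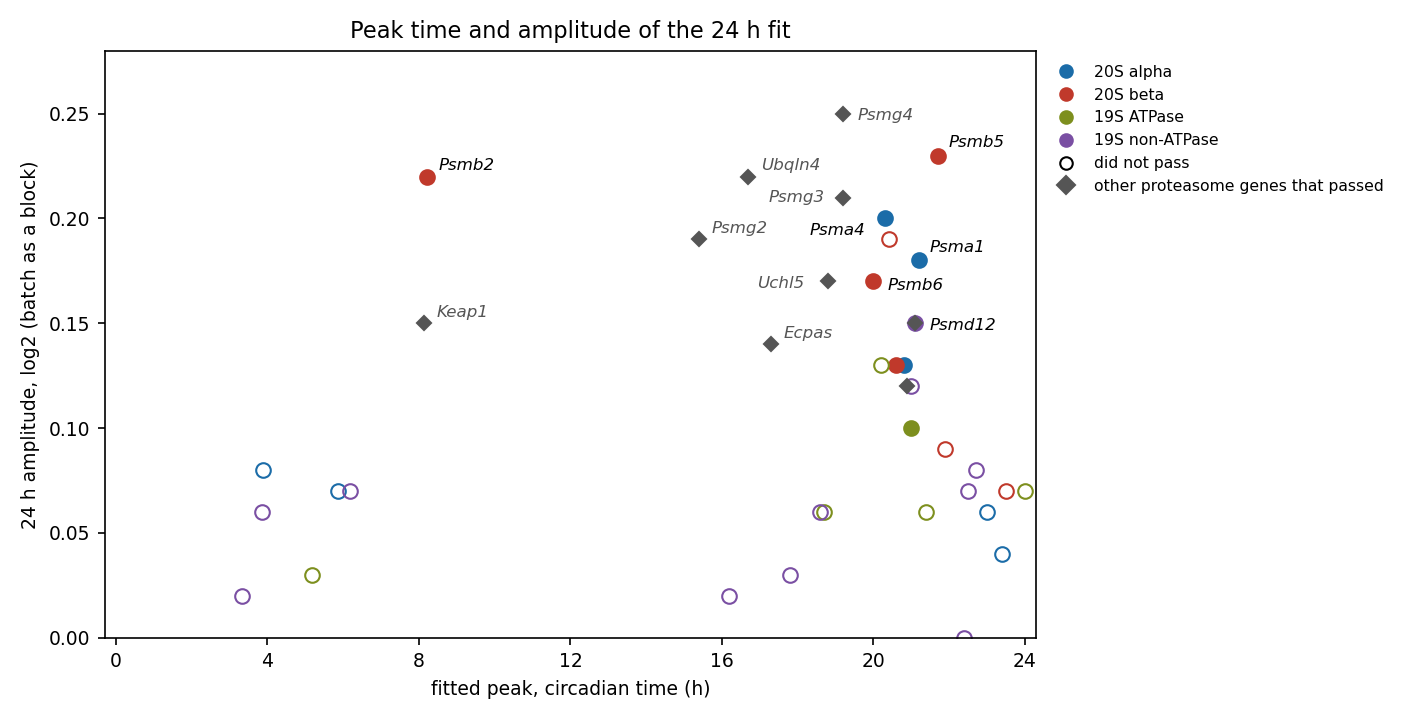
Fitted peak (circadian time, h) against 24 h amplitude (log2) with the array batch as a block, for 31 proteasome subunit genes coloured by subcomplex and for the other proteasome genes that passed (diamonds). Filled circles passed at an adjusted p under 0.05, and 8 of 9 of them lie between CT20 and CT21.7, with Psmb2 at CT8.2.

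The count of 5 without the block depended on single profiles. It fell to 3 without either separate CT10 array of 46 h and to 2 without the CT10 profile of 70 h, and it was 10 without the CT14 profile shared by 50 h and 74 h and 11 without the second CT14 array of 50 h. Psma1 and Psmb5 passed in each of these 5 fits. Psma2 was lost in the first 3 of them. The shares of all genes called in these 5 fits are not given here, so their counts have no background beside them. With replicate 1 of every time point left out limma called 0 members, and 26 of all genes, and with replicate 2 left out 0 members and 152 of all genes. In each of these fits 6 members had an unadjusted p under 0.05, and the share of all genes at that threshold is not given here.

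Below these calls lay a shared order of times in the first batch, described here without a test. Of its 4 times, CT22 held the highest mean of 20 of 31 members, against 21.6% of all genes, CT2 of 7, CT6 of 3 and CT14 of 1. CT14 held the lowest mean of 19 members, against 24.7% of all genes, CT6 of 10, and CT2 and CT22 of 1 each. Among these 4 times, the members thus tended to be highest at CT22, late in the subjective night, and lowest at CT14, at its start. After quantile normalization between arrays the counts were 20 highest at CT22 (28% of all genes) and 23 lowest at CT14 (31.5%). Averaged over members, the log2 signal was 11.77 at CT2 (profiles 11.72 to 11.81), 11.74 at CT6 (11.71 to 11.75), 11.72 at CT14 (11.7 to 11.74) and 11.8 at CT22 (11.77 to 11.82). The spread of these means was small, CT22 overlapped with CT2, and CT14 overlapped with CT6. In the second batch the mean was lower, 11.48 at CT10 and 11.62 at CT18, where time and batch cannot be told apart.

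**Figure D3:**
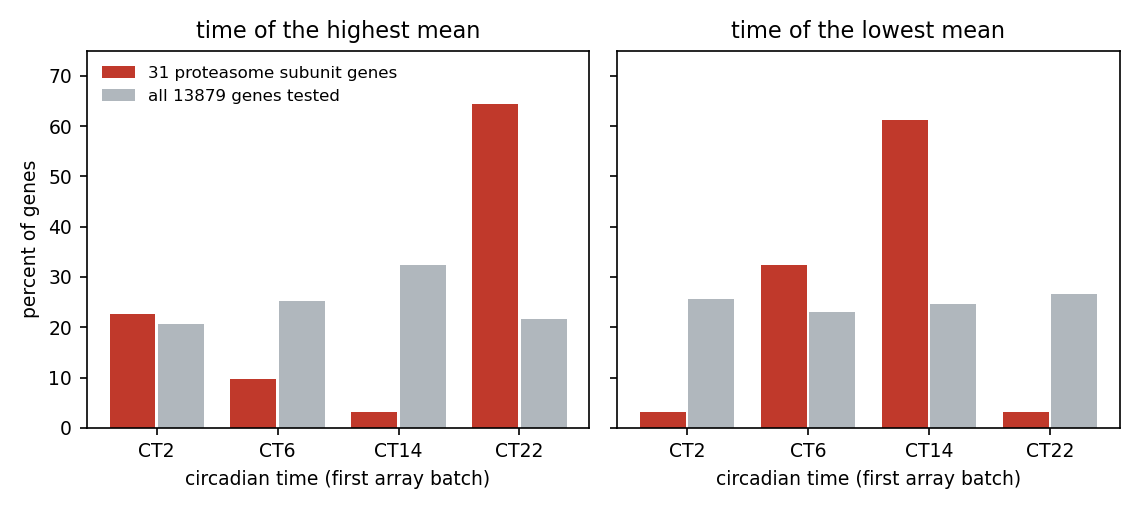
Percent of genes (y axis) whose mean was highest (left) or lowest (right) at each of the 4 circadian times of the first array batch, for the 31 proteasome subunit genes (red) and all 13879 genes tested (grey). CT22 was the highest time for 64.5% of the members and 21.6% of all genes, and CT14 the lowest for 61.3% and 24.7%.

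The members also varied together across profiles. Over all 465 pairs of members the median Pearson correlation was 0.31 across 18 profiles and 0.41 across the 12 of the first batch, while the median of a member with other genes was 0.04 and -0.04. In the 6 second-batch profiles it was 0.06, against 0 with other genes. These are descriptions: the points share arrays and their scaling. In the first batch, Psma2 (0.88), Psma1 (0.84), Psma4 (0.83) and Psmb5 (0.82) followed the mean of the other members most closely, and Psmb2 (-0.08), Psmd8 (0.12) and Psmd6 (0.18) least.

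**Figure D4:**
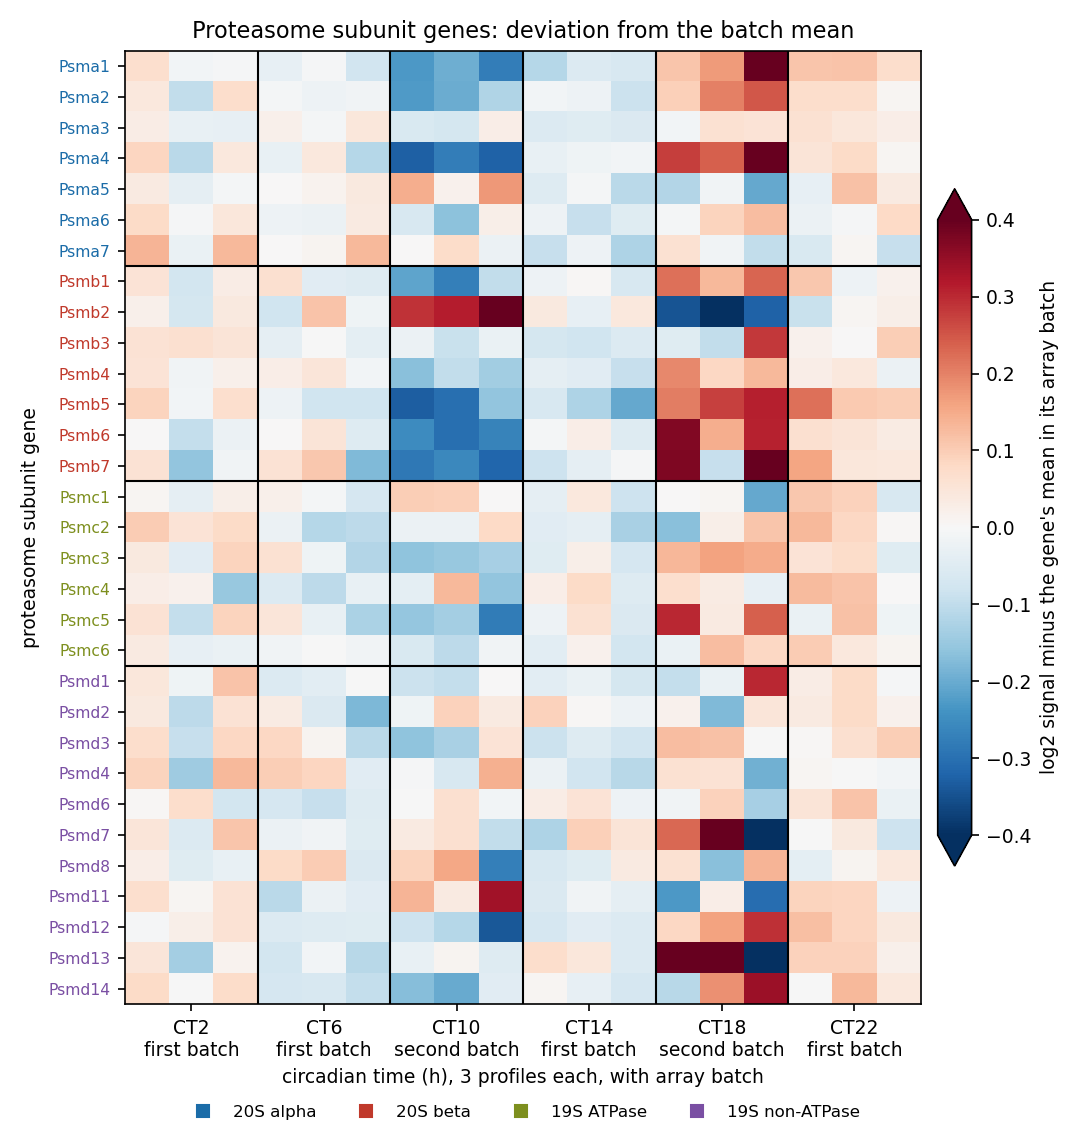
Log2 signal of 31 proteasome subunit genes (rows, coloured by subcomplex) in 18 profiles (columns, 3 at each circadian time in hours), as the difference from the gene's mean in its own array batch. In the second batch most 20S genes are red at CT18 and blue at CT10, with Psmb2 and, more weakly, Psma5 the reverse. In the first batch CT22 is mostly pale red and CT14 mostly pale blue.

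Times of the same batch were then compared, CT14 and CT2 at 12 h apart and the other pairs at 8 h. For CT14 minus CT2, limma called 0 of 31 members, 0 higher and 0 lower (4.74% of all genes, 2.27% higher and 2.47% lower). At an unadjusted p under 0.05 there were 3 members, and 2344 of all 13879 genes. The median difference was -0.04, and 25 members had a lower mean at CT14 than at CT2 (45.1% of all genes). In 10 members all 3 CT14 profiles lay below all 3 CT2 profiles, which held for 16% of all genes, and in 0 above them (17.2%). Psmb5 had the largest difference, 12.22 at CT14 and 12.4 at CT2, or -0.18 ± 0.06 (adjusted p = 0.0833), followed by Psma7 of the alpha ring (-0.16 ± 0.06, adjusted p = 0.181) and Psmc2 (-0.15 ± 0.06, adjusted p = 0.219).

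For CT22 minus CT6, limma again called 0 of 31, 0 higher and 0 lower (2.37% of all genes, 1.02% higher and 1.35% lower). At an unadjusted p under 0.05 there were 3 members, and 1902 of all 13879 genes. The median difference was 0.06, and 26 members had a higher mean at CT22 than at CT6 (47.4% of all genes). In 12 members the CT22 profiles lay above all CT6 profiles (9.65% of all genes), and in 0 below (10.3%). They were Psma1, Psma2, Psmb3, Psmb5, Psmc2, Psmc4, Psmc6, Psmd6, Psmd11, Psmd12, Psmd13 and Psmd14, which is 2 alpha, 2 beta and 8 regulatory-particle genes. After quantile normalization 25 members were higher (52.4% of all genes), and 6 lay above without overlap and 1 below. The share of all genes without overlap after that normalization is not given here, so those last counts cannot be set against a background. Psmb5 differed by 0.2 ± 0.06 (12.49 at CT22 and 12.29 at CT6, adjusted p = 0.0776). In a fit of the first batch alone, Psmb5 was the 1 member called in each contrast, at -0.18 ± 0.05 for CT14 minus CT2 (adjusted p = 0.0422, 8.45% of all genes called) and 0.2 ± 0.05 for CT22 minus CT6 (adjusted p = 0.0403, 4.24%).

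For CT18 minus CT10, limma called 15 of 31 members (21.2% of all genes), 12 higher (11.6%) and 3 lower (9.55%). The core made up most of them: 10 of 14 core genes passed, 8 higher and 2 lower, and 5 of 17 regulatory-particle genes, 4 higher and 1 lower. Psma4 was higher by 0.62 ± 0.06 (adjusted p = 4.64e-06), Psmb6 by 0.55 ± 0.06 (adjusted p = 5.44e-06) and Psmb5 by 0.53 ± 0.06 (adjusted p = 9.38e-06), while Psmb2 was lower by a difference of -0.72 ± 0.07 (adjusted p = 2.36e-06). All 3 proteolytic subunits rose: Psmb7, the trypsin-like one, had 12.22, 11.76 and 12.43 at CT18, against 11.56, 11.53 and 11.59 at CT10 (0.57 ± 0.12, adjusted p = 0.00277). In the regulatory particle the ATPases Psmc3 and Psmc5 and the lid subunits Psmd12 and Psmd14 rose, by 0.28 to 0.38. In 11 members the CT18 profiles lay above all CT10 profiles (15.5% of all genes) and in 3 below (13.8%). The other calls that were lower were Psmd11, a lid subunit (-0.34 ± 0.08, adjusted p = 0.00616), and Psma5 of the alpha ring (-0.22 ± 0.06, adjusted p = 0.0125). Other tested probe sets of called members differed by 0.02 for Psma5 and -0.18 to 0.14 for Psmd11. For Psma1, Psmb1 and Psmb4 they differed by -0.22 to 0.09. No such probe set passed a fit over all probe sets. In that fit a further probe set was called higher for Psma6, Psma7, Psmb3, Psmc2, Psmc4, Psmd6 and Psmd13, whose brightest probe sets did not pass.

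Muscle and liver markers differed within this contrast too. The summed muscle signal was 811, 7770 and 33500 in the CT18 profiles, against 416, 10600 and 11100 at CT10, and the summed liver signal 2340, 7630 and 18700 at CT18, against 1870, 2230 and 2330 at CT10. Leaving out the 4 muscle-marker profiles left 1 profile at CT18 and 1 at CT10, each assumed to vary like the first-batch groups, so what follows describes 2 single profiles. In that fit 10 members passed (5.14% of all genes), 9 higher (3.82%) and 1 lower (1.33%). The differences between these profiles were -0.73 for Psmb2, 0.58 for Psmb5, 0.17 for Psmc5, 0.16 for Psmb7, -0.03 for Psma5 and -0.01 for Psmd11. The last 4 did not pass (adjusted p = 0.451, 0.54, 0.88 and 0.965), nor did Psmc3 (0.31, adjusted p = 0.102) or Psmb4 (0.18, adjusted p = 0.125). Without the 78 h array with the low Gapdh ratio 15 passed (18.4% of all genes), 13 higher (10.5%) and 2 lower (7.89%), and Psmd13 (0.52 ± 0.07, adjusted p = 0.000179) and Psmd7 (0.39 ± 0.09, adjusted p = 0.00902) were among them, against 0.05 ± 0.25 and 0 ± 0.21 with it. Psmd14 (0.18 ± 0.07, adjusted p = 0.115) and Psma5 (-0.18 ± 0.06, adjusted p = 0.0522) were not. In a fit of the second batch alone 7 passed (6% of all genes).

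For a 24 h cosine, CT22 minus CT6 and CT18 minus CT10 read the same phase axis, and they share no arrays. Of the 31 members, 22 had the same sign in both and 19 were higher in both, while 61.1% of all genes had the same sign. The Pearson correlation of the differences over members was 0.33 and the Spearman correlation 0.23. The difference between the contrasts, tested after the data had been seen, was called in 9 members (4.86% of all genes), 7 positive (3.47%) and 2 negative (1.4%). It was positive in Psma4 (0.54), Psmb6 (0.5), Psmb1 (0.34), Psmb5 (0.33), Psma2 (0.3), Psmb4 (0.28) and Psma1, where CT18 minus CT10 was the larger, and negative in Psmb2 (-0.69) and Psmd11 (-0.45). After quantile normalization 5 of them were called: Psma4, Psmb1, Psmb2, Psmb6 and Psmd11. The share of all genes called in that fit is not given here.

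**Figure D5:**
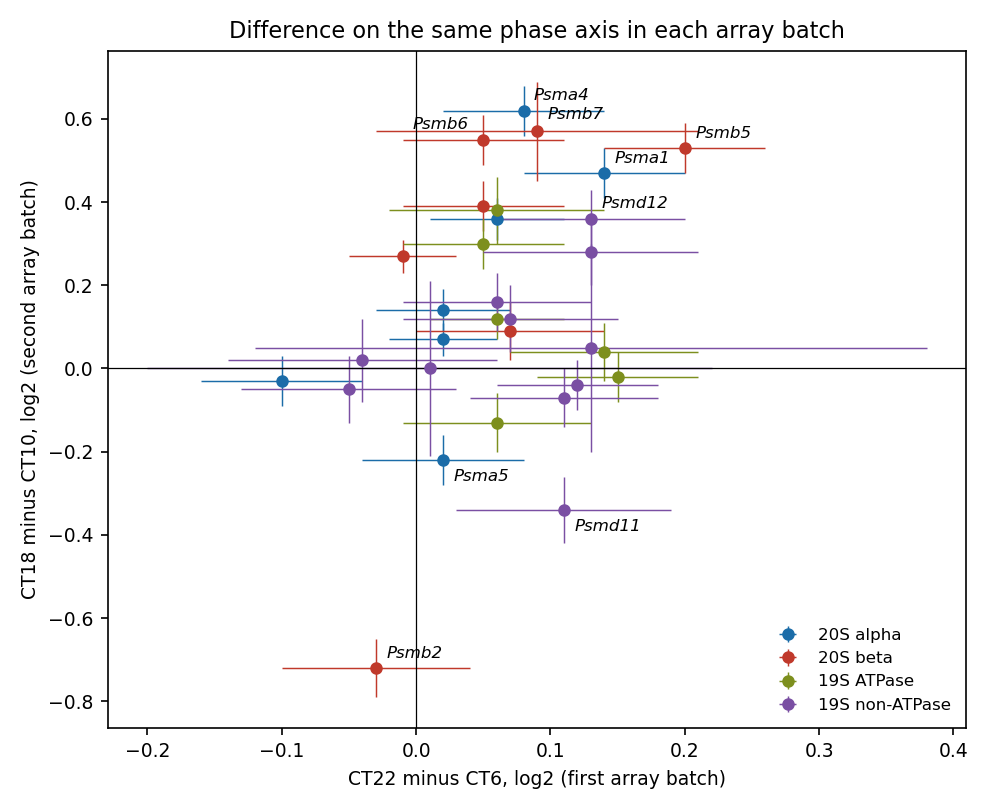
Difference CT22 minus CT6 in the first array batch (x axis, log2) against CT18 minus CT10 in the second (y axis, log2) for 31 proteasome subunit genes, with SE bars, coloured by subcomplex. The x values reach 0.2 (Psmb5) and the y values run from -0.72 (Psmb2) to 0.62 (Psma4).

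Over all 6 circadian times, limma's test of any difference called 20 of 31 members (54% of all genes), among them all 7 beta genes, 4 of 7 alpha, 3 of 6 ATPase and 6 of 11 non-ATPase genes. This test includes the step between array batches. Fitted beside the 24 h terms, the second minus the first batch differed in 18 members (46.5% of all genes), 16 of them lower (29.6%), and all 7 beta genes were lower, while 2 members were higher (16.9%), both ATPases. Psmb2 had the largest step (-0.96 ± 0.09, adjusted p = 3.51e-07), followed by Psmd13 (-0.8 ± 0.16), Psmd8 of the lid (-0.47 ± 0.07), Psmd7 (-0.44 ± 0.14), Psmb7 (-0.43 ± 0.1) and Psma4 (-0.39 ± 0.08). After quantile normalization 16 were called, 5 of them higher, against 2 higher as deposited. Within the first batch alone, the test of any difference called 3 members, Psma1, Psmb5 and Psmc2. The share of all genes called is given neither for that test nor for the quantile-normalized step, so these counts have no background beside them.

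Among profiles of a single cycle, the second cycle of darkness did not differ detectably from the first. The 5 profiles averaged from near-copy arrays of both cycles were left out. Whether the remaining arrays of both cycles are separate samples was not tested. Over the 13 profiles that belonged to 1 cycle, limma called 0 of 31 members for the level (0% of all genes). It called 0 for a change of the 24 h rhythm (0% of all genes). At an unadjusted p under 0.05 there were 3 members and 1349 of all 13879 genes for the level. For the change of rhythm there were 0 members and 324 of all genes. The median second minus first difference was -0.01, with a range of -0.26 to 0.09. A 12 h component beside the 24 h terms was called in 0 members (0.418% of all genes). At an unadjusted p under 0.05 there were 11 members, and 3064 of all 13879 genes. With the block the 12 h component was called in 4 members (3.17% of all genes): Psma4, Psmb2, Psmb4 and Psmb6.

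Other probe sets gave a second reading of some members. Of the 31 genes 13 had 1 probe set in the table, and 14 had between them 24 further probe sets that passed the filter. In a fit over all probe sets with the block, 6 of these 24 passed: for Psma6 (0.11 ± 0.03 at CT21), Psmb3 (0.22 ± 0.04 at CT20.5), Psmc2 (0.16 ± 0.03 at CT21.2), Psmc4 (0.12 ± 0.03 at CT19.3), Psmd6 (0.12 ± 0.03 at CT21) and Psmc6 (0.2 ± 0.04 at CT3.38). The share of all probe sets called in that fit is not given here, so this count has no background beside it. The brightest probe sets of these 6 genes did not pass that fit. For 5 of the 6 the second reading peaked late in the subjective night like the members called above, with the same limit on peaks fitted with the block. For Psmc6, an ATPase of the base, the brightest probe set peaked at CT21.4 (adjusted p = 0.183) and the third at CT4.32 (adjusted p = 0.246), neither passing, and its timing is uncertain. Of the 9 members called with the block, 2 had further tested probe sets, 3 in all: Psma1 (0.02 ± 0.04) and Psmb1 (0.06 ± 0.04 and 0.06 ± 0.06), of which 0 passed.

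Proteins that build, assist or control the proteasome were examined as a list of 49 genes, of which 37 were tested. Without the block 5 passed (12.8% of all genes), and with it 9 (17.8%). Of the 8 assembly chaperones, 2 and 5 passed. Pomp, which guides beta-ring assembly, averaged 12.17 ± 0.01 at CT2, 12.12 ± 0.05 at CT6, 11.79 ± 0.02 at CT10, 12.12 ± 0.03 at CT14, 12.06 ± 0.09 at CT18 and 12.26 ± 0.07 at CT22. Its amplitude was 0.16 ± 0.04 at CT22.7 (adjusted p = 0.0261, and 0.0037 with the block), and Psmd10 (gankyrin), a chaperone of the base, had 0.17 ± 0.04 at CT22.3 (adjusted p = 0.0196, and 0.0101 with the block). Both shared the CT10 minimum and CT22 maximum of Psmb5. Without the muscle-marker profiles, the fit with the block gave Pomp an adjusted p of 0.0278 and Psmd10 one of 0.0466. Of the alpha-ring chaperones, some passed with the block and not without it: Psmg3 (0.21 ± 0.04 at CT19.2, adjusted p = 0.00296), Psmg4 (0.25 ± 0.07 at CT19.2, adjusted p = 0.0349) and Psmg2 (0.19 ± 0.05 at CT15.4, adjusted p = 0.0386). Psmg1 passed neither fit (0.05 ± 0.03 with the block, adjusted p = 0.479, and 0.27 without it). Without the muscle-marker profiles Psmg4 did not pass (0.12 ± 0.05, adjusted p = 0.269), while Psmg3 (adjusted p = 0.0355) and Psmg2 (adjusted p = 0.00761) did. Within the first batch Psmg2 passed (adjusted p = 0.00868), and Psmg4 (adjusted p = 0.428), Psmg3 (0.0913), Pomp (0.08) and Psmd10 (0.133) did not.

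Among the enzymes and receptors bound to the regulatory particle, Uchl5, a deubiquitinase, had an amplitude of 0.18 ± 0.04 at CT18.4 (adjusted p = 0.0147, and 0.0109 with the block), and Ecpas, an adaptor and scaffold, passed with the block (0.14 ± 0.03 at CT17.3, adjusted p = 0.0175). Ubqln4, a shuttle factor that delivers ubiquitinated proteins, had 0.2 ± 0.04 at CT17.2 (adjusted p = 0.0147, and 0.00466 with the block). Without the muscle-marker profiles Uchl5 did not pass (adjusted p = 0.0731), whereas Ecpas (0.0132) and Ubqln4 (0.00616) did, as they did within the first batch (0.0315 and 0.0106). The fitted peaks of these 3 genes lay before those of the subunits that passed, other than Psmb2. Of the transcriptional regulators, Nfe2l2 (NRF2) had 0.18 ± 0.05 at CT13 (adjusted p = 0.0355, and 0.117 with the block) and its inhibitor Keap1 0.15 ± 0.04 at CT8.13 with the block (adjusted p = 0.0429). Neither passed without the muscle-marker profiles (adjusted p = 0.152 for Nfe2l2 and 0.413 for Keap1) or within the first batch (0.185 and 0.604). Nfe2l1 itself averaged 11.33 ± 0.08 at CT2, 11.28 ± 0.15 at CT6, 11.14 ± 0.13 at CT10, 11.48 ± 0.09 at CT14, 10.6 ± 0.49 at CT18 and 11.29 ± 0.09 at CT22 and was called in neither (adjusted p = 0.412 without the block, 0.229 with it). The immunoproteasome subunits Psmb8, Psmb9 and Psmb10 passed neither fit (adjusted p of 0.157 or higher), nor did the 4 tested activators and inhibitors.

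Beside these, the 8 genes of the CCT chaperonin, another large ring complex of the cytosol, were fitted in the same way. With the block 5 of 8 passed (17.8% of all genes), led by Cct7 (0.2 ± 0.03 at CT17.9, adjusted p = 0.000178) and Cct5 (0.16 ± 0.02 at CT18.8, adjusted p = 0.000806), and within the first batch 4 of 8 passed (12.3%). Of 40 tested genes for cytosolic ribosomal proteins, 0 passed the 24 h test without the block. The difference between these lists and the subunit genes was not tested.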

How the data were processed

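Gene expression was measured on 24 Affymetrix mouse genome arrays of whole adrenal RNA. The deposited values are linear probe set intensities, and the software, scaling and filters that the authors used to make them are not given in the sources used here. Gene symbols came from the platform annotation. The members and lists were chosen with earlier results of these data known.

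An offset of 51, the 10th percentile over the table, was added to the deposited intensities before log2 was taken. Probe sets under the 40th percentile (184) were left out, and the brightest probe set stood for each gene. The named genes were those with the lowest p in either 24 h fit, up to 10, and the members with the brightest and dimmest probe sets. Near-copy arrays were averaged, and all 13879 genes were fitted with limma 3.58.1 in R 4.3.3 (eBayes with a trend, Benjamini-Hochberg adjustment, threshold 0.05). The 24 h test used a cosine and sine of circadian time, and contrasts used the 6 circadian times as groups. The script was tested on simulated data. Batches, the fit with the array batch as a block, and the tests of the batch step and of the difference between contrasts rest on features seen in the data. Arrays carry no read depth, so precision is limited by their number. The closing section gives the effect of other offsets, filters, normalizations, probe sets and left-out arrays. Replicate numbers were checked for pairing: the correlation of deviations of same-numbered samples had a median of 0.01 over 66 pairs of time points (-0.56 to 0.53), so they were not taken as pairs.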

Additional observations from a re-analysis of the deposited data

How the results depend on the processing

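The 24 h count of 5 members was 9 with the array batch as a block, 3 within the first batch, 3 after quantile normalization (Psma1, Psma4 and Psmb5), 2 without the muscle-marker profiles (which leaves 1 profile each at CT10 and CT18), 2 on time point means, 15 with all 24 arrays taken as independent, and 0 without replicate 1 or without replicate 2. With single profiles left out it ranged from 2 to 11. The count for any difference (20) was 3 within the first batch and 4 without replicate 1, and 19 to 23 with single profiles left out. The CT14 minus CT2 and CT22 minus CT6 counts of 0 were 1 each (Psmb5) within the first batch and with 24 independent arrays, and 0 to 0 with single profiles left out. The CT18 minus CT10 count of 15 was 7 in the second batch alone and 6 without replicate 1, and 13 to 17 with single profiles left out. The 12 h count of 0 was 4 with the array batch as a block and 10 with 24 independent arrays, and 0 to 1 with single profiles left out. The 2 cycle counts were 0 to 0 with single profiles left out. Within the first batch Psmb2 had an amplitude of 0.02 ± 0.03 (adjusted p = 0.911), so no phase can be read from its fitted peak there. The cause of these changes was not tested, although several of these fits hold fewer profiles. Where the share of all genes called is not given above for a fit, its count has no background beside it.

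With the replicate number as a block, the counts were 4 for the 24 h rhythm, 20 for any difference, 15 for CT18 minus CT10 and 0 for the other contrasts, the cycle tests and the 12 h component. Psmc3 was the call lost, and the shares of all genes called with this block are not given here. The numbers did not pair the samples.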
